A study of Homo sapiens with 12 samples.

Results

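The 8 genes described here, CELF2, ZNF804A, MLLT11, PPP1R14C, STMN3, INA, SNCAIP and FBXL16, are known for expression in neurons or brain and were measured in HOS, a human osteosarcoma cell line. They were selected on measured values, namely strong differences in counts between the groups of HOS libraries, so their differences between groups are a description: errors and intervals are given, no P is printed for them, and counts of genes past a threshold describe the selection. All 8 were found by symbol among the 25141 Ensembl genes of the count table, and all 8 were among the 12542 genes that passed the filter on low counts.

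Sequencing covered 4 groups of 3 libraries each, 12 in all, and all came from HOS cells. The Mock cells carried an empty vector and the upCIN85 cells a plasmid encoding full-length CIN85 (gene SH3KBP1), an adaptor protein of receptor endocytosis and of the cytoskeleton. Both were selected with geneticin, and the resistant pool was used rather than single clones. For the knockdown, several siRNAs to CIN85 were given together (siCIN85), with a non-targeting siRNA as control (siNeg). An effect of the plasmid cannot be told apart from other differences between the resistant pools. The study's methods speak of biological replicates in general terms, and the labels do not say whether the 3 libraries of a group came from separate cultures, so P-values measure only the spread between these samples.

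The libraries were read from the 3′ ends of transcripts, and total counts lay between 3540641 and 6049458, higher in the vector experiment (medians 5745424 for Mock and 5834397 for upCIN85) than in the siRNA experiment (4038260 for siNeg and 3793046 for siCIN85). The level of SH3KBP1 was 85.1 ± 2.37 CPM (counts per 1e6, scaled by the trimmed mean of M values; mean ± SD, n = 3) in siNeg and 7.54 ± 3.19 in siCIN85, a log2 fold change (log2FC) of −3.51 (SE 0.21). In Mock it was 77.5 ± 5.004 and in upCIN85 81.3 ± 9.61, with overlapping libraries and a log2FC of 0.07 (SE 0.16). The tags of a transcript made from the plasmid need not lie at the 3′ end of the annotated gene, so these counts do not check the upCIN85 label, and upCIN85 below means the libraries so labelled. The study examined CIN85 protein in the resistant cells by western blot, which the counts do not measure.

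Genes typical of neurons are kept silent in most other cells, in part by the repressor REST and its corepressors, and tumour cell lines of mesenchymal origin often transcribe some of them. Products of such genes include RNA-binding proteins that direct neuronal splicing, tubulin-binding proteins and intermediate filaments of the axon, and proteins of the synapse. The 8 genes belong to several of these classes and to no single pathway.

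The cell line label was checked against markers. Of 13 bone and mesenchyme markers, 11 were in the table, and COL1A1 (1277 to 7311 counts per library) and SPARC (1339 to 3150) were counted in every library. Among the osteoblast markers, SP7 and BGLAP were not analysed here and IBSP had at most 3 counts in any library. Of 8 neuron markers, 7 were in the table: NEFL and NEFM had at most 1 count in any library, MAP2 and SYT1 at most 4, RBFOX3 at most 8, SNAP25 at most 11 and SYP at most 23. The summed level of these 7 ranged from 4.21 to 4.89 CPM in Mock, 4.72 to 6.29 in upCIN85, 2.93 to 4.998 in siNeg and 3.76 to 7.52 in siCIN85. Of 6 glia markers, 4 were in the table. GFAP and S100B had no more than 3 counts in any library, whereas the highest count of any glia marker, in OLIG2 or MBP, was 181. Their sum lay between 23.3 and 27.2 CPM in Mock, 22.4 and 32.3 in upCIN85, 24.2 and 40.6 in siNeg and 25 and 31.4 in siCIN85. The libraries thus held collagen and other mesenchyme transcripts and few reads of defining neuron genes, although the 8 genes themselves were counted. In such bulk libraries, fewer cells with a transcript and less transcript per cell cannot be told apart.

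**Figure D1:**
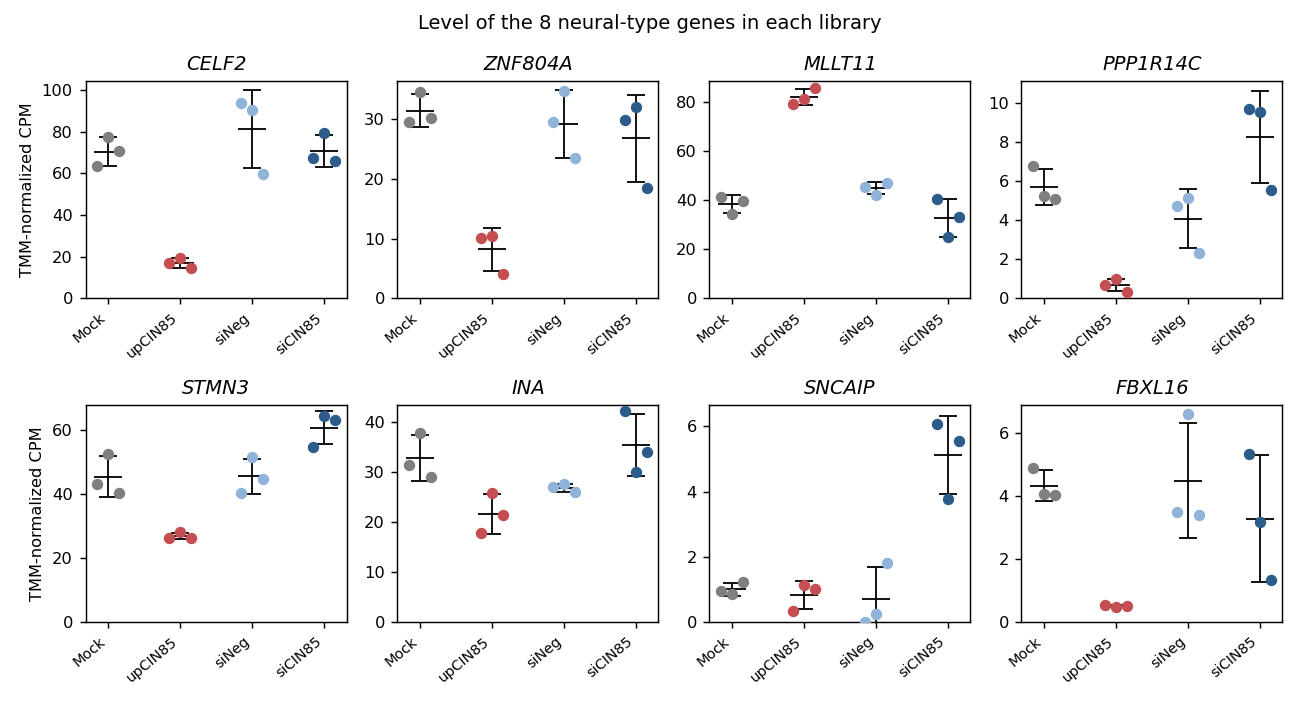
TMM-normalized CPM (vertical axes, linear and starting at 0) of the 8 genes in each of the 12 libraries. Points are libraries, horizontal bars group means and whiskers 1 SD (n = 3). MLLT11 was highest in upCIN85 (79.0 to 85.5 CPM), CELF2 lowest there (14.5 to 19.3 CPM), and SNCAIP highest in siCIN85 (3.76 to 6.07 CPM).

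Of the 3 genes with a role in RNA or gene regulation, CELF2 and ZNF804A were lower and MLLT11 was higher in upCIN85 than in Mock. CELF2 (ENSG00000048740; chr10:10798397-11336675, plus strand, GRCh38) encodes an RNA-binding protein that regulates alternative splicing and the stability of mRNAs. Its counts were 337, 456 and 403 in Mock and 97, 118 and 85 in upCIN85. In the siRNA experiment they were 376, 370 and 230 in siNeg and 277, 275 and 249 in siCIN85. Every upCIN85 library was below every other library, while Mock, siNeg and siCIN85 overlapped. The mean level was 70.5 ± 7.01 CPM in Mock and 16.9 ± 2.42 CPM in upCIN85, which is 4.17-fold lower (log2FC −2.06, SE 0.17). Between siCIN85 (70.8 ± 7.56 CPM) and siNeg (81.4 ± 18.7 CPM) the log2FC was −0.20 (95% interval −0.54 to 0.13).

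ZNF804A (ENSG00000170396; chr2:184598366-184939492, plus strand) encodes a zinc finger protein known from genetic studies of schizophrenia. Mock libraries held 157, 204 and 172 counts and upCIN85 libraries 58, 64 and 24. The siNeg libraries held 118, 142 and 90 counts and the siCIN85 libraries 123, 111 and 70. As for CELF2, only the upCIN85 libraries stood apart from the other groups, and replicate 3 was the lowest library of its group in upCIN85, siNeg and siCIN85. The mean was 31.4 ± 2.78 CPM in Mock and 8.23 ± 3.60 CPM in upCIN85 (log2FC −1.93, SE 0.27), against 29.2 ± 5.64 CPM in siNeg and 26.8 ± 7.30 CPM in siCIN85 (log2FC −0.13, 95% interval −0.66 to 0.40). Without upCIN85 replicate 3 the first value was −1.61.

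MLLT11 (ENSG00000213190; chr1:151057758-151068497, plus strand), also named AF1q, was found as a fusion partner of KMT2A in leukaemia and acts as a transcriptional cofactor. It had 220, 202 and 226 counts in Mock and 452, 497 and 503 in upCIN85. There were 182, 172 and 180 counts in siNeg and 167, 86 and 125 in siCIN85. MLLT11 was the 1 gene of the 8 that was higher in upCIN85, and its 3 upCIN85 libraries lay above the other 9. The means were 38.4 ± 3.70 CPM in Mock and 81.9 ± 3.29 CPM in upCIN85, a 2.13-fold difference (log2FC 1.09, SE 0.14). In siCIN85 (32.8 ± 7.83 CPM) all libraries were below those of siNeg (44.8 ± 2.49 CPM), with a log2FC of −0.44 (95% interval −0.77 to −0.12) that ranged from −0.63 to −0.30 when single libraries were left out.

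Among the cytoskeletal genes, STMN3 and INA were lower in upCIN85 than in Mock and higher in siCIN85 than in siNeg, each by less than 2-fold. STMN3 (ENSG00000197457; chr20:63639705-63657682, minus strand) is a stathmin, a protein that binds tubulin and destabilizes microtubules. Counts were 230, 310 and 230 in Mock and 151, 172 and 154 in upCIN85. They were 162, 211 and 172 in siNeg and 226, 223 and 239 in siCIN85. The upCIN85 libraries (26.2 to 28.1 CPM) formed the lowest and narrowest group and the siCIN85 libraries (54.9 to 64.5 CPM) the highest, with Mock and siNeg overlapping between them. The log2FC was −0.76 (SE 0.14) in upCIN85 minus Mock and 0.41 (SE 0.14) in siCIN85 minus siNeg. The mean level was 45.4 ± 6.42 CPM in Mock and 45.6 ± 5.59 CPM in siNeg.

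INA (ENSG00000148798; chr10:103277163-103290351, plus strand) encodes alpha-internexin, an intermediate filament of neurons. Mock had 167, 223 and 165 counts and upCIN85 102, 158 and 126. Corresponding counts were 108, 113 and 100 in siNeg and 174, 104 and 129 in siCIN85. On the CPM scale the upCIN85 libraries (17.8 to 25.8) lay just below those of siNeg (26.0 to 27.6), which lay below those of Mock (28.9 to 37.9), and Mock overlapped siCIN85 (30.1 to 42.2). The log2FC was −0.59 (SE 0.16) in upCIN85 minus Mock and 0.40 (SE 0.17) in siCIN85 minus siNeg, falling to 0.25 without siCIN85 replicate 1. The control groups of the 2 experiments did not overlap for INA, with a log2FC of −0.28 (95% interval −0.64 to 0.07) in siNeg minus Mock.

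The last 3 genes encode a phosphatase inhibitor, an F-box protein and a binding partner of alpha-synuclein and had low counts. PPP1R14C (ENSG00000198729; chr6:150143076-150250357, plus strand) is an inhibitor of protein phosphatase 1. It was counted 36, 31 and 29 times in Mock and 4, 6 and 2 times in upCIN85. In siNeg it had 19, 21 and 9 counts and in siCIN85 40, 33 and 21. The upCIN85 group was the lowest, and the siCIN85 libraries were above those of siNeg but overlapped those of Mock. Summed counts were 96 in Mock and 12 in upCIN85, a depth-adjusted ratio of 8.39 (exact 95% interval for counting error only, 4.59 to 16.8), and the fitted log2FC was −3.03 (SE 0.42). In siCIN85 minus siNeg the log2FC was 1.01 (SE 0.33), or 0.73 without siNeg replicate 3, whose 9 counts were the lowest of both siRNA groups.

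FBXL16 (ENSG00000127585; chr16:692498-705829, minus strand) belongs to the F-box family, many of whose proteins are substrate receptors of SCF ubiquitin ligases. It had 26, 24 and 23 counts in Mock and 3 counts in each upCIN85 library. The siNeg libraries had 14, 27 and 13 counts and the siCIN85 libraries 22, 11 and 5. Again the upCIN85 libraries alone stood below the rest, and the siCIN85 libraries were the most scattered. The ratio of Mock (73 counts) to upCIN85 (9 counts) was 8.503 (4.24 to 19.3, counting error only), with a log2FC of −3.03 (SE 0.50). In siCIN85 minus siNeg the log2FC was −0.44 (95% interval −1.29 to 0.41) and moved between −1.02 and −0.07 when libraries were left out.

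SNCAIP (ENSG00000064692; chr5:122311354-122464219, plus strand) encodes synphilin-1, a binding partner of alpha-synuclein. It had 5, 5 and 7 counts in Mock and 2, 7 and 6 in upCIN85. In siNeg there were 0, 1 and 7 counts and in siCIN85 25, 13 and 21. Only the siCIN85 libraries had more than 7 counts, and SNCAIP passed the low-count filter through this group alone. The ratio of siCIN85 (59 counts) to siNeg (8 counts) was 7.74 (3.68 to 18.8, counting error only), and the log2FC was 2.89 (SE 0.60). The reference group rested on 1 library, since siNeg replicate 3 held 7 of its 8 counts, and without it the fitted log2FC was 5.11. At these counts a difference between upCIN85 and Mock was not detectable (log2FC −0.24, 95% interval −1.62 to 1.13).

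**Figure D2:**
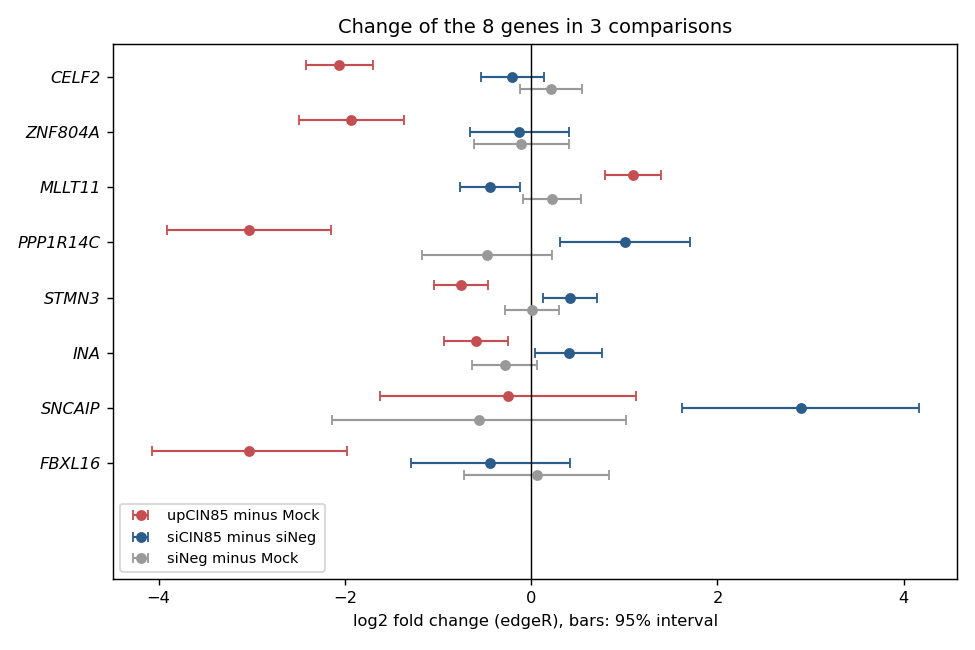
The log2FC (horizontal axis) of the 8 genes in upCIN85 minus Mock, siCIN85 minus siNeg and siNeg minus Mock, from edgeR's quasi-likelihood fit of all 12 libraries. Points are estimates and whiskers 95% intervals. CELF2, ZNF804A, PPP1R14C and FBXL16 lie between −3.03 and −1.93 in upCIN85 minus Mock, and SNCAIP at 2.89 in siCIN85 minus siNeg.

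The first comparison asked which genes differed with the CIN85 plasmid. In upCIN85 minus Mock, 7 of the 8 genes had a negative log2FC, and the median was −1.34, beside 0.007 for all 12542 genes tested. In edgeR's quasi-likelihood test 6 of the 8 passed an adjusted P of 0.05 (CELF2, ZNF804A, PPP1R14C, STMN3 and FBXL16 lower, MLLT11 higher), beside 1.23% of all genes. The groups did not overlap for 7 of the 8, beside 20.7% of all genes. The genes were chosen by such differences, so these shares describe the choice. The call of STMN3 was lost without Mock replicate 2 (log2FC −0.64) or upCIN85 replicate 3 (−0.74), and that of FBXL16 without upCIN85 replicate 3 (−3.03), whereas INA passed without upCIN85 replicate 2 (−0.74) and in the fit with the siRNA replicate numbers as a block, which raised the number of members called to 7.

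The second comparison asked what differed when CIN85 was silenced. In siCIN85 minus siNeg, 4 of the 8 genes had a positive and 4 a negative log2FC, with a median of 0.14 (all genes −0.005). SNCAIP alone passed the adjusted threshold, beside 1.04% of all genes, and the groups did not overlap for SNCAIP, PPP1R14C, STMN3, INA and MLLT11, 5 of 8, beside 20.2% of all genes. SNCAIP was selected on this difference and passed the low-count filter through siCIN85 alone, so its call is part of the selection. DESeq2 gave no adjusted P for SNCAIP (log2FC 2.92) and FBXL16, and 0 of the other 6 passed. The call of SNCAIP was lost in a fit of only the 6 libraries of the comparison (log2FC 2.88) and without siNeg replicate 1 (log2FC 2.32), siNeg replicate 2 (2.48), siCIN85 replicate 1 (2.75) or siCIN85 replicate 3 (2.83).

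The third comparison set the controls of the 2 experiments side by side, which differ in vector, selection and transfection. In siNeg minus Mock 0 of the 8 genes passed the adjusted threshold, beside 0.526% of all genes, 0 of 8 had an unadjusted p under 0.05, and 0 of the 6 with an adjusted P in DESeq2 passed. The groups did not overlap for INA and MLLT11, 2 of 8, beside 19.4% of all genes. Estimates ran from −0.56 for SNCAIP to 0.22 for MLLT11. PPP1R14C, STMN3 and INA had estimates below 0 in upCIN85 minus Mock and above 0 in siCIN85 minus siNeg, and MLLT11 the reverse, while CELF2, ZNF804A and FBXL16 were below 0 in both. Whether the 2 effects of a gene differ was not tested.

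Promoter windows at starts annotated by RefSeq are shown for ZNF804A and PPP1R14C, among the genes that were lowest in upCIN85, and for MLLT11, the gene that was highest there. RefSeq windows of 300 bases (GRCh38.p14; 250 bases before to 50 after a start) were matched for 7 of the 8 genes, with 10 windows for CELF2, 2 for SNCAIP and 1 for each other gene, and none was matched for FBXL16. Capitals mark GGGCGG, the GC box, on either strand. The windows lie at chr2:184598279-184598578 (plus strand) for ZNF804A, chr6:150142794-150143093 (plus strand) for PPP1R14C and chr1:151060147-151060446 (plus strand) for MLLT11. The RefSeq start of MLLT11 lies 2639 bases inside the GENCODE gene span given above, and that of STMN3 4916 bases inside, whereas those of ZNF804A, PPP1R14C and INA lie within 163 bases of the span's start.
ZNF804A: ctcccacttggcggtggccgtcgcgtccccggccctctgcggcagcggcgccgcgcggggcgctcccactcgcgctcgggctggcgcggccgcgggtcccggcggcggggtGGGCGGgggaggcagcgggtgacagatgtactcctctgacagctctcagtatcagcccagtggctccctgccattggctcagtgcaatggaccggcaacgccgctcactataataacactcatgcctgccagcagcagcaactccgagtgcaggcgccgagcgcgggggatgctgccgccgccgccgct
PPP1R14C: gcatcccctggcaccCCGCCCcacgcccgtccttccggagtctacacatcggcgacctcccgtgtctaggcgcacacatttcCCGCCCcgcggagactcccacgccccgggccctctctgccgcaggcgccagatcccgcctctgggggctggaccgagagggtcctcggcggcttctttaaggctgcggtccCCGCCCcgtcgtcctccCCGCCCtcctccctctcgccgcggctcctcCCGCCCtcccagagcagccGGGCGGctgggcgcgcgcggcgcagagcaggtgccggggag
MLLT11: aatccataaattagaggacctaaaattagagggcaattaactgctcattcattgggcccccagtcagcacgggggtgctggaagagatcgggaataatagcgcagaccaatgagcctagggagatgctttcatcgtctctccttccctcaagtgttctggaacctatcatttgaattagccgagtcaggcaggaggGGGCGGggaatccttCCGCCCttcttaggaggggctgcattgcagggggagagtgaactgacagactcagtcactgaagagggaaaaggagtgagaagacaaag

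The 3 windows differ in base composition. Those of ZNF804A and PPP1R14C each hold 36 CG dinucleotides, more than in 87.3% of the 35116 windows of the RefSeq table (median 14, quartiles 4 and 28), and that of MLLT11 holds 7. INA and STMN3 resemble the first pair, with 35 CG dinucleotides each. The windows of SNCAIP hold 4 and 50, and those of CELF2 from 5 to 54, and the counts do not show which start was used in any of the genes. GC boxes number 1 in ZNF804A, 6 in PPP1R14C, 4 in INA and 2 each in STMN3 and MLLT11, and 45.0% of all windows hold at least 1. The letters TTCAGCAC, the left part of the RE1 element bound by REST, are in none of the member windows on either strand and in 0.963% of all windows.

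To place the 8 genes, 230 further genes in 8 lists were examined: 5 lists of neural genes, and lists of family members, protein partners and REST corepressors, many of whose genes are widely expressed. Of the 230, 211 were in the table, 133 were tested and 42 had no more than 3 counts in any library. In upCIN85 minus Mock 76 of the 133 had a positive and 57 a negative log2FC, with a median of 0.04. In edgeR's main fit (all 12 libraries, no block) 0 passed the adjusted threshold and 22 had an unadjusted p under 0.05 (14.5% of all genes tested had). DESeq2 called 1, CSPG4, a proteoglycan of glial precursors. In the fit with the siRNA block 6 passed (ANK3, CSPG4, KIF1A, MAP1A, SCG2 and SYT11, named after their values were seen), with log2FC values from −0.86 for SYT11 to 1.09 for MAP1A. The median of these lists thus stood near that of all genes.

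In siCIN85 minus siNeg 1 of the 133 listed genes passed the adjusted threshold, VGF, the precursor of secreted neuropeptides. VGF had 64, 30 and 69 counts in siNeg and 168, 97 and 226 in siCIN85, with no overlap, and its log2FC was 1.64 (SE 0.38, adjusted P = 0.0462 by edgeR). Its call was lost in a fit of only the 6 libraries (1.65) and without siNeg replicate 1 (1.77), siNeg replicate 2 (1.33), siCIN85 replicate 1 (1.68) or siCIN85 replicate 3 (1.32). With the replicate block 5 listed genes passed: VGF (adjusted P = 0.00831 by edgeR) was higher, and MBNL2, a splicing regulator, MYL9, a myosin light chain, NES, an intermediate filament of neural progenitors, and TUBA1A, an alpha-tubulin, were lower, the last 4 named after their values were seen. Without the block their log2FC values were −0.61, −0.59, −0.92 and −1.02. In all, 22 of the 133 had an unadjusted p under 0.05 (15.7% of all genes), and DESeq2 called MYL9 and VGF. In siNeg minus Mock 0 passed in edgeR's main fit and 17 had an unadjusted p under 0.05 (12.4% of all genes). DESeq2 called RCOR1 there, a REST corepressor named after its values were seen.

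**Figure D3:**
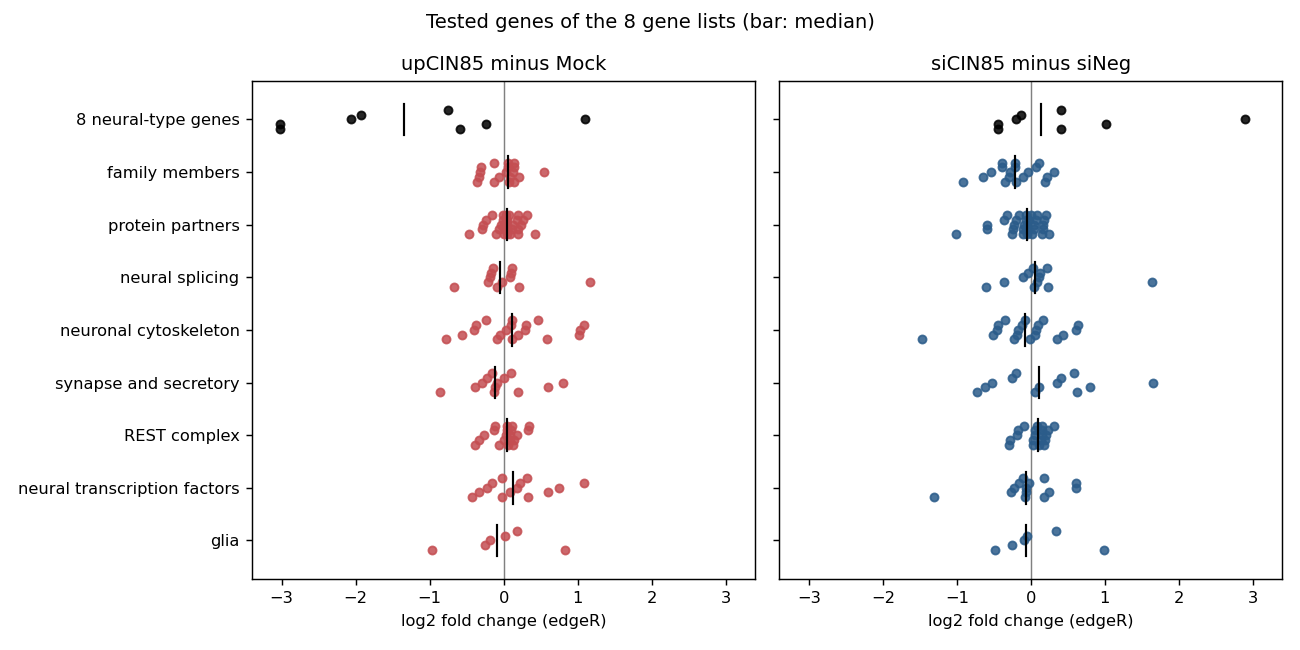
The log2FC (horizontal axes) of the 8 genes (black, top) and of the tested genes of the 8 lists (coloured, 1 point per gene) in upCIN85 minus Mock (left) and siCIN85 minus siNeg (right). Vertical bars are medians. On the left the 8 genes have a median of −1.34, and the list medians lie between −0.12 and 0.13.

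Relatives of the 8 genes ranged from abundant to almost not counted, with NES (16 to 118 counts per library) and FBXL5 (36 to 122) among those between. Of 40 family members 18 were tested and 0 passed in any comparison in edgeR's main fit or in DESeq2. NES passed in siCIN85 minus siNeg with the siRNA block (adjusted P = 0.0477 by edgeR) and with no filter. FBXL5 passed there without siCIN85 replicate 2. SKP2 passed in siNeg minus Mock with only the 6 libraries and with no filter. Family members at an unadjusted p under 0.05 numbered 1, 3 and 1 in upCIN85 minus Mock, siCIN85 minus siNeg and siNeg minus Mock. The 3 in siCIN85 minus siNeg were NES (log2FC −0.92) and FBXL5 (−0.65), which were lower, and CELF1 (0.22), which was higher. CELF1, the widely expressed relative of CELF2, had 1503 to 3064 counts per library and a log2FC of 0.13 (SE 0.10) in upCIN85 minus Mock. CELF3 had at most 1 count, CELF4 at most 2 and CELF5 at most 3. STMN1, the stathmin of dividing cells, had 4305 to 8177 counts and a log2FC of 0.03 (SE 0.12), whereas the neuronal STMN2 had at most 1 count. VIM, the mesenchymal intermediate filament, had 1501 to 3931 counts and a log2FC of 0.05 (SE 0.11). PPP1R14B had 542 to 937 counts and a log2FC of −0.13 (SE 0.09), and PPP1R14A at most 1 count. FBXL5, SKP2, CELF3, CELF4, CELF5, STMN2, PPP1R14A and PPP1R14B were named after their values were seen.

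Partners and regulators of the encoded proteins showed few differences. Of 34 partner genes 31 were tested and 0 passed in edgeR's main fit. An unadjusted p under 0.05 was found for 3 in upCIN85 minus Mock, 5 in siCIN85 minus siNeg and 4 in siNeg minus Mock. In siCIN85 minus siNeg the partner genes MYL9 and TUBA1A passed as lower with the siRNA block, and DESeq2 called MYL9. Both also passed without a block, with no filter and when siNeg replicate 3 was left out. MYL9 passed without siCIN85 replicate 2 too. With no filter, RBX1 (named after its values were seen) passed in upCIN85 minus Mock and TUBB2B in siNeg minus Mock. UCHL1, a ubiquitin hydrolase abundant in neurons, was among the most counted, with 6671 to 10853 counts per library and a log2FC of 0.19 (SE 0.11) in upCIN85 minus Mock and −0.02 (SE 0.11) in siCIN85 minus siNeg. All 20 genes of REST and its corepressors were tested and 0 passed in edgeR's main fit in any comparison. In siNeg minus Mock RCOR1 passed in edgeR with no filter and in DESeq2. REST itself, named after its values were seen, had mean levels of 68.4 CPM in Mock and 54.2 CPM in upCIN85, and of 70.4 CPM in siNeg and 82.7 CPM in siCIN85. Its log2FC was −0.34 (SE 0.12, adjusted P = 0.183 by edgeR) in upCIN85 minus Mock and 0.23 (SE 0.12, adjusted P = 0.367) in siCIN85 minus siNeg.

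The remaining lists had low medians in both experiments. Median log2FC values in upCIN85 minus Mock were −0.06 for 12 neural splicing genes, 0.11 for 19 genes of the neuronal cytoskeleton, −0.12 for 13 synaptic and secretory genes, 0.13 for 14 neural transcription factors and −0.08 for 6 glial genes. In siCIN85 minus siNeg the same lists had medians of 0.06, −0.08, 0.11, −0.06 and −0.07. The cytoskeletal list had the most genes at an unadjusted p under 0.05 in the first comparison, 5 higher and 3 lower of 19, beside 14.5% of all genes tested. Of this list 0 passed the adjusted threshold in the main fit. In upCIN85 minus Mock ANK3, KIF1A and MAP1A passed with the siRNA block. They also passed without a block, in the fit of only the 6 libraries and in that with no filter.

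Some bone markers moved with the vector groups. Of 10 tested genes of a bone and mesenchyme list, COL1A2, a type I collagen chain, and ALPL, the alkaline phosphatase of mineralizing cells, rose in upCIN85 by log2FC values of 1.35 (SE 0.31, adjusted P = 0.0439 by edgeR) and 1.76 (SE 0.39, adjusted P = 0.0340 by edgeR). ALPL had 5, 5 and 6 counts in Mock and 16, 23 and 19 in upCIN85. COL1A2 had 451, 264 and 239 counts in Mock and 917, 385 and 1250 in upCIN85, where 1 library was below the highest Mock library. The other direction was also seen: 3 of the 10 had a negative log2FC, among them MSX2 (−0.70) and SPARC (−0.35) at an unadjusted p under 0.05. With the siRNA block ALPL, COL1A2 and SPP1 passed as higher and MSX2 and SPARC as lower. For siCIN85 against siNeg 0 of 10 passed in the main fit. COL1A2 (−1.26), COL1A1 (−0.71) and SPARC (−0.47) were lower, and ALPL (1.71) was among those higher, at an unadjusted p under 0.05. COL1A1 and SPARC passed the adjusted threshold with the siRNA block. COL1A2 passed it without a block, in the fit of only the 6 libraries and in that with no filter. DESeq2 gave ALPL no adjusted P in upCIN85 minus Mock (log2FC 1.78), did not call COL1A2 (1.34) and called SPP1 there, and it called COL1A1 in siCIN85 minus siNeg. MSX2 and SPP1 were named after their values were seen. The call of ALPL was lost whichever of the 6 libraries was left out (1.64 to 1.85), and that of COL1A2 in a fit of only the 6 libraries (1.35) and without Mock replicate 2 (1.19), Mock replicate 3 (1.17), upCIN85 replicate 1 (1.27) or upCIN85 replicate 3 (0.96). The summed level of the 11 bone markers was 1202 to 1712 CPM in Mock, 1309 to 1985 in upCIN85, 1246 to 1561 in siNeg and 799 to 1108 in siCIN85, and the part of these markers in the values of the 8 genes was not tested.

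Across the 12 libraries SNCAIP was the least like the other genes. Pearson's r of log2 CPM between CELF2 and ZNF804A was 0.94, and between CELF2 and PPP1R14C, FBXL16, STMN3 and INA it was 0.92, 0.90, 0.86 and 0.70. MLLT11 ran opposite to them, with r of −0.95 to STMN3 and −0.89 to CELF2. SNCAIP had r of 0.55 with INA, 0.52 with STMN3, 0.36 with PPP1R14C, 0.11 with CELF2, 0.07 with ZNF804A, 0.03 with FBXL16 and −0.42 with MLLT11. These values are set mainly by the group differences on which the genes were chosen, and the 12 libraries share group, depth class and experiment.

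The genes most like each member among all 12542 were, by the same r, PTX3 (0.96), NFE2L3 (0.96) and FLT1 (0.95) for CELF2. ANXA3 (0.97), AC117402.1 (0.96) and SMAD4 (0.95) were nearest to ZNF804A, and HPS4 (0.95), NUCKS1 (0.92) and ZIC1 (0.91) to MLLT11. For PPP1R14C they were CBL (0.96), ETFB (0.95) and FOXF1 (0.95), for STMN3 OPRD1 (0.96), FLI1 (0.95) and MTSS1 (0.95), and for INA ADAM19 (0.93), STK4 (0.92) and RHOC (0.92). SNCAIP was nearest to ZNF341 (0.94), POLR1A (0.92) and SMAGP (0.92), and FBXL16 to UGT8 (0.92), SLC27A2 (0.92) and FAR2 (0.91). None of the 8 genes had another of the 8 among its 3 nearest, and each set of 3 is the top of all genes tested over 12 libraries.

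**Figure D4:**
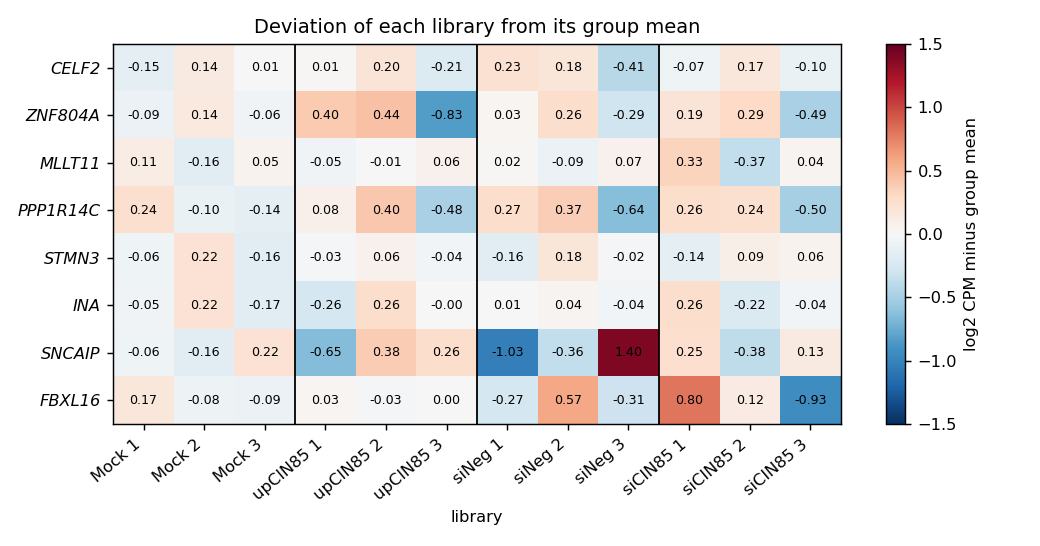
Deviation of each library's log2 CPM (prior count 2) from the mean of its group for the 8 genes (rows) in the 12 libraries (columns, vertical lines between groups). Red is above and blue below the group mean. Replicates 3 of upCIN85, siNeg and siCIN85 are below their group means for CELF2, ZNF804A and PPP1R14C, with −0.835, −0.295 and −0.487 for ZNF804A.

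With the group means removed, the deviations of the libraries still ran together for 3 of the genes. The r within groups was 0.81 between ZNF804A and PPP1R14C, 0.75 between CELF2 and PPP1R14C and 0.68 between CELF2 and ZNF804A. Between MLLT11 and STMN3 it was −0.65, and between SNCAIP and CELF2 −0.74. Over all 28 pairs the median was 0.18, and 18 pairs were above 0. These are 12 libraries around 4 group means, and sampling error is large in PPP1R14C, so the values are a description. Replicates 3 of upCIN85, siNeg and siCIN85 had the lowest ZNF804A and PPP1R14C levels of their groups, which replicate 3 of Mock had only for PPP1R14C.

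The spread within groups differed between the genes. The SD of log2 CPM within groups was 0.15 for STMN3, 0.195 for MLLT11, 0.205 for INA and 0.23 for CELF2, near the median of 0.215 for all genes tested. It was 0.43 for PPP1R14C, 0.45 for ZNF804A, 0.51 for FBXL16 and 0.72 for SNCAIP. This order does not rank how firmly the levels were known. In upCIN85 minus Mock the SE of the log2FC was 0.42 for PPP1R14C and 0.27 for ZNF804A. All but ZNF804A of these 4 genes with the wider spread had at most 40 counts in any library.

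Genes overlapping on the opposite strand limit the assignment of reads to 5 of the members, because the strand setting of the counting is not given in the sources used here. MLLT11 overlaps CDC42SE1 on the opposite strand, whose level was 203 ± 4.43 CPM in Mock and 202 ± 9.38 CPM in upCIN85 (log2FC −0.01, SE 0.13). ZNF804A overlaps AC096667.1 and FBXL16 overlaps Z92544.2, both on the opposite strand, with at most 8 and 16 counts in any library. CELF2 overlaps 6 and SNCAIP 4 genes on the opposite strand, CELF2-AS1 and CELF2-AS2 among them, which were not analysed here, and no gene on the opposite strand overlaps PPP1R14C, STMN3 or INA. Without strand, reads of such pairs could not be told apart. On the same strand CELF2 overlaps AL136369.2 and PPP1R14C overlaps the snoRNA gene RF01210, which were not analysed here and which strand would not separate.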

How the data were processed

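Per the labels and the study's methods, a core facility made the libraries with the Lexogen QuantSeq 3′ FWD kit with a module for unique molecular identifiers and read them from 1 end (NextSeq). The submitters' processing notes name cutadapt 4.3, STAR 2.7.3a, Picard 2.25.6, featureCounts and Subread 2.0 and the build GRCh38. The annotation release, the strand setting and whether identifiers were collapsed are not given in the sources used here. The deposited values are raw counts per Ensembl gene, not normalized.

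Gene symbols and positions were taken from GENCODE 29 (GRCh38), in which 95 of 25141 identifiers had no match. In R 4.3.3 with edgeR 4.0.16, filterByExpr (minimum count 10, minimum total 15) kept 12542 genes, and a quasi-likelihood fit with TMM factors and a mean for each group used all 12 libraries (8 residual degrees of freedom). Two-sided P-values were adjusted over all genes tested (Benjamini-Hochberg), with a threshold of 0.05. Standard errors were approximated from the F statistic as the log2FC size over the root of F. Log2 CPM for correlations used a prior count of 2. Intervals of count ratios are exact 95% binomial intervals, and cover counting error only.

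The 8 members and the gene lists were chosen with earlier results of these data known. Named from each list were genes past the threshold and otherwise up to 3 with the highest mean counts, and for each of the 8 genes the 3 with the highest r. Further names are marked. Alternatives were DESeq2 1.42.0, RLE in place of TMM, the fit without a low-count filter, separate fits of 6 libraries per comparison, a block for the replicate number (siRNA experiment only, or both experiments), and each library left out in turn, where a group of 2 libraries shares the spread of the others. Deviations from the group mean correlated across genes between siNeg and siCIN85 libraries of the same number (r = 0.353 for number 1, 0.269 for number 2, 0.446 for number 3). The study states no pairing of libraries, so the main fit used no block and the blocks were alternatives. Replicates of a group differed by 4.56 to 9.28 times the chi-square per degree of freedom that sampling noise gives, so no library was taken for a duplicate. The code was tested on simulated data.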

Additional observations from a re-analysis of the deposited data

How the results depend on the processing

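Of the fold changes of the 8 genes under all alternatives, 87 of 95 values in upCIN85 minus Mock, 86 of 96 in siCIN85 minus siNeg and 71 of 79 in siNeg minus Mock kept their direction and their side of the threshold or, where DESeq2 gave no adjusted P, moved by less than the SE. The other values moved across the threshold or, mostly where the estimate was small, changed sign. ZNF804A in siCIN85 minus siNeg was 0.00462 when siNeg replicate 2 was left out (range with a library left out −0.283 to 0.0724), and in siNeg minus Mock it ranged from −0.241 to 0.0328. STMN3 in siNeg minus Mock was −0.0246 with no filter and −0.000429 in DESeq2, and −0.0275, −0.0729 and −0.0843 without Mock replicate 1, Mock replicate 3 and siNeg replicate 2 (range −0.0843 to 0.125). SNCAIP ranged from −0.529 to 0.101 in upCIN85 minus Mock and from −2.79 to 0.0084 in siNeg minus Mock, the lowest without siNeg replicate 3, and FBXL16 from −0.32 to 0.228 in siNeg minus Mock. VGF ranged from −0.335 to 0.212 and COL1A2 from −0.376 to 0.20 in siNeg minus Mock, and SH3KBP1 from −0.0107 to 0.155 in upCIN85 minus Mock.

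The number of genes called depended on the setting, and the cause was not tested. In upCIN85 minus Mock 154 genes were called, against 281 with only the 6 libraries, 637 with no filter, 311 in DESeq2 and 25 to 260 with a library left out (25 without upCIN85 replicate 3). In siCIN85 minus siNeg 131 were called, against 50, 617, 298 and 9 to 362 (9 without siCIN85 replicate 1), and in siNeg minus Mock 66, against 376 with no filter, 183 in DESeq2 and 7 to 134 (7 without Mock replicate 3). Listed genes called numbered 0 in upCIN85 minus Mock, against 3, 9 and 1 with the 6 libraries, no filter and DESeq2 and 0 to 1 with a library left out, 1 in siCIN85 minus siNeg, against 0, 8 and 2 and 0 to 4, and 0 in siNeg minus Mock, against 1, 4 and 1 and 0 to 1. Of the 8 genes, 4 to 7 were called in upCIN85 minus Mock and 0 to 4 in siCIN85 minus siNeg over all alternatives, and 0 in siNeg minus Mock.

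With the replicate block in the siRNA experiment only, 545 genes were called in upCIN85 minus Mock and 429 in siCIN85 minus siNeg, and 6 and 5 of the listed genes. In the vector experiment the same-numbered libraries had r of 0.326, 0.227 and 0.0989, and each correlated best with its own, as in the siRNA experiment. Whether the numbers pair the samples is not stated for either experiment. The replicate block in both experiments called 1035 and 968 genes and 13 and 13 listed genes, and 4 of the 8 genes (MLLT11, PPP1R14C, SNCAIP and STMN3) in siCIN85 minus siNeg. SNCAIP was called there without a block too. The other calls of the 8 genes that changed with a block were those of INA in upCIN85 minus Mock and of MLLT11, PPP1R14C and STMN3 in siCIN85 minus siNeg. Counts of 10 or fewer per library, as in SNCAIP outside siCIN85 and in PPP1R14C and FBXL16 in upCIN85, leave wide relative errors.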
